A study of Homo sapiens with 6 samples.

Results

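S100A proteins are small calcium-binding proteins that carry a pair of EF-hand loops and mostly act as dimers. In resting cells they bind little calcium, and a rise in calcium opens a surface through which they dock onto partners such as annexins, cytoskeletal myosins and ubiquitin ligase adaptors, while some members are also released and bind receptors on other cells. Their genes lie in a cluster on the long arm of chromosome 1 and several are widely used as markers of epithelial differentiation, motility and tumor progression, in lung tumors among others. In the gene expression table of H1650 cells, 9 of 15897 listed genes have a name that starts with S100A, and these 9 genes are described here. The rule uses the name alone, but the family was chosen by the FPKM of its members in these same control and shSETD2 libraries, so the differences of its members between the groups are given as a description with no test.

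H1650 cells are a long-established line from a human lung adenocarcinoma. There are 6 RNA-seq libraries, of which 3 are titled control and carry the genotype label wild type, and 3 are titled and labelled shSETD2. SETD2 encodes the methyltransferase that trimethylates lysine 36 of histone H3, and the study silenced it with short hairpin RNAs delivered by lentivirus into stable lines. The methods describe 3 hairpin constructs, but neither they nor the labels say which construct each shSETD2 library received, whether the control libraries carried a scrambled hairpin, or whether the libraries came from separate cultures, so the spread between libraries of a group may be technical. The values are FPKM, fragments scaled to gene length and library size, and a change is given as the difference of the group means of log2(FPKM + 1), on which the change of a gene with little FPKM comes out too small. The number of fragments behind a value is unknown, so a value of 0 has no counting limit.

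SETD2 itself had 18.0, 10.2 and 17.6 FPKM in the control group and 8.97, 8.09 and 12.2 FPKM in the shSETD2 group, in the order of library numbers. The groups overlapped, and the log2 fold change of -0.58 (standard error 0.24) did not pass the threshold (adjusted p = 0.0641 from limma). It passed without control library 2 (-0.83, adjusted p = 6.48e-03 from limma) or without shSETD2 library 3 (-0.73, adjusted p = 0.0418 from limma), and not without any other library (-0.53 to -0.45, adjusted p = 0.149 to 0.179 from limma). With median ratio scaling it was -0.25 (adjusted p = 0.376 from limma). The study also measured SETD2 by qPCR and western blot and reported less of it in its silenced H1650 cells. Whether those were the cells of these libraries is not stated. Over the listed genes, each of which counts as a point though genes are no replicates, Pearson's r of log2(FPKM + 1) lay at 0.985 to 0.991 within a group and at 0.756 to 0.761 across groups. Of the 14068 genes tested, those whose mean over all libraries was 0.5 FPKM or more, 78.6% passed an adjusted p of 0.05 in limma, 26.8% toward higher and 51.8% toward lower values in the shSETD2 libraries. Markers of cell identity also differed. Of 12 lung epithelial markers the table used here lists 3, with sums of 16.6 to 18.3 FPKM in the control and 8.63 to 8.90 FPKM in the shSETD2 libraries, and NKX2-1, the transcription factor of lung epithelium, was listed at 0 in every shSETD2 library against 1.65 ± 0.188 FPKM (SD, n = 3) in control. Of 12 markers of embryonic kidney, 11 are listed, with sums of 27.8 to 31.4 FPKM in control and 61.2 to 72.5 FPKM in shSETD2. Among them EYA1, SALL1 and SIX2 were at 0 in every shSETD2 library. Of 12 epithelial markers 10 are listed, and their sum went from 14.9 to 17.2 FPKM in control to 408 to 462 FPKM in shSETD2, mostly through keratins such as KRT8, at 2.86 ± 0.252 and 93.9 ± 6.42 FPKM. Other genes of this list went the other way, with CDH1 at 1.27 ± 0.358 and 0.0120 ± 0.00175 FPKM and EPCAM at 0.710 ± 0.124 and 0.220 ± 0.0712 FPKM. Of 12 mesenchymal markers 10 are listed, with sums of 123 to 138 FPKM in control and 170.1 to 180.3 FPKM in shSETD2. This list was split, with VIM at 66.5 ± 8.84 and 132 ± 4.58 FPKM, SNAI2 at 14.3 ± 0.191 and 0.0107 ± 0.0185 FPKM, SPARC at 4.46 ± 0.0969 and 0.0225 ± 0.0272 FPKM, and TWIST1 at 7.91 ± 0.524 FPKM in control and at 0 in every shSETD2 library. Of 12 keratinocyte markers 2 are listed (18.5 to 18.9 and 26.4 to 29.6 FPKM), and of 10 myeloid markers 2 (1.33 to 1.62 and 1.91 to 2.24 FPKM). All 6 libraries are labelled H1650, but whether both groups come from the same cells was not tested, and neither was the part of these differences in cell identity in the values of the S100A genes. A comparison of the groups below is therefore one between the libraries so labelled.

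On chromosome 1 of GRCh37 all 9 genes are read from the minus strand, in a stretch of 1.65 Mb. S100A10 and S100A11 form a pair at the lower end, from 151955391 to 151966866 and from 152004982 to 152020383. The other 7 lie within 96.8 kb, in the order S100A6, S100A4, S100A3, S100A2, S100A16, S100A14 and S100A13, from 153507075 to 153603836. The 1487 kb between S100A11 and S100A6 hold 52 annotated protein-coding genes, among them genes of the cornified envelope of skin, that were not analysed here. Of 16 protein-coding S100A genes annotated on chromosome 1, 7 were not analysed here. The gene model of S100A3 lies inside that of S100A4 on the same strand, but 0 of its 841 exonic bases are also exonic in S100A4. S100A13 overlaps S100A1, which lies on the other strand. The libraries were made with a strand-specific kit, but whether strand was used in quantification is not given in the sources used here. S100A11 has 8 annotated pseudogenes, and how reads shared with them were divided is not known.

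The 250 bases before the transcription start were compared for 13 RefSeq promoters of the 9 genes, located in GRCh37 by an exact match. The 4 shown are those of S100A6, which had the largest log2 fold change of FPKM + 1, S100A11, which had the highest level and the largest difference in FPKM, S100A3, which was at 0 in every control library, and S100A4, which was low in both groups. They are printed 5′ to 3′ on the minus strand, and capitals mark the TATA box letters TATAAA and the AP-1 letters TGANTCA, searched on both strands. The windows of S100A6 and S100A11 hold neither of these exact patterns. Other forms of the TATA box were not searched and may be present, and the S100A6 window holds the letters tataag. They lie at chr1:153508468-153508717, chr1:152009481-152009730, chr1:153521735-153521984 and chr1:153518283-153518532.
S100A6: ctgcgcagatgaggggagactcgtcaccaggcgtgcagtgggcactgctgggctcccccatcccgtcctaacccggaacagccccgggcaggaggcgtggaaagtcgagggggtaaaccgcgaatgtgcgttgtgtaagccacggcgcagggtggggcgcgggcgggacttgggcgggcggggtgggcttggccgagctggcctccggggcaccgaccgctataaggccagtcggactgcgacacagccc
S100A11: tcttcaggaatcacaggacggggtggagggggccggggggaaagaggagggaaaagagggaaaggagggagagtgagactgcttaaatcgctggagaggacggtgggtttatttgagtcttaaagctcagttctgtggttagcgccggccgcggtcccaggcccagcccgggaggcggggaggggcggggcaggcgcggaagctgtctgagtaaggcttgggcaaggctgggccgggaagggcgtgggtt
S100A3: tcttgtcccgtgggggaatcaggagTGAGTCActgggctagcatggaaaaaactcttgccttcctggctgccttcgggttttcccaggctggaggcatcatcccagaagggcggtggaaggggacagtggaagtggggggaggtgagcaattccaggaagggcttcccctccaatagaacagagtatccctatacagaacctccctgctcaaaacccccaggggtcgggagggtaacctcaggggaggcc
S100A4: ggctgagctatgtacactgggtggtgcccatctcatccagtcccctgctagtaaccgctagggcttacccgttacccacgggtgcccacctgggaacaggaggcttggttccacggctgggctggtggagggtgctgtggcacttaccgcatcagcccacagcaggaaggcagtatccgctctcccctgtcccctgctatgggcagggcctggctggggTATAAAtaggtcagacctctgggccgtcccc
The upstream bases of S100A6 are 70.0% G or C with 24 CpG, and those of S100A10 are 71.2% G or C, also with 24 CpG. S100A11 has 15 CpG in this window, S100A4 has 7, S100A14 and S100A3 have 4 each and the upstream start of S100A16 has 1. The median over 35097 RefSeq promoters is 58.0% G or C and 11 CpG. TATAAA was found before S100A4, 31 bases from the start, and before 1 of the 3 starts of S100A13, 29 bases from it, and it is in 10.7% of all promoters. TGANTCA was found before S100A3 and before 1 of 2 starts of S100A2, against 6.57% of all promoters. The GC box letters GGGCGG were found before S100A10, S100A11, S100A6 (at 3 positions), S100A3, and 1 start each of S100A16 and S100A13, against 42.6% of all promoters. A narrow pattern for NF-κB sites, stricter than the usual consensus, was in 0 of the 13 windows, against 1.73% of all promoters. NF-κB sites of other forms were not searched and may be present. The CCAAT letters were found before S100A3 and 1 start each of S100A16 and S100A13, against 32.0% of all promoters. S100A6 and S100A16, the members with the largest log2 fold changes at each pseudocount tried, thus lie far apart in CpG, with 24 against 6 and 1 at the starts of S100A16.

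The proteins, translated from the canonical transcripts, are 90 residues (S100A6) to 105 residues (S100A11) long. Over the 36 pairs the share of identical aligned residues ran from 22.2% (S100A3 and S100A14) to 60.8% (S100A4 and S100A2) with a median of 34.1%. The 6 pairs formed by S100A6, S100A4, S100A3 and S100A2, which are next to each other on the chromosome, were the 6 most alike, from 43.3% to 60.8%. A strict pattern of the canonical calcium-binding EF-hand loop was found once each in S100A11, S100A6, S100A4, S100A2 and S100A16, and was not found in S100A10, S100A3, S100A14 and S100A13. The pattern has a fixed length and spacing and cannot find a loop of another length. A protein without a match may therefore still bind calcium. S100A10 is known as the member that has lost calcium binding and is held in the open form. S100A3 has 10 cysteines, more than any other of the 9.

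**Figure D1:**
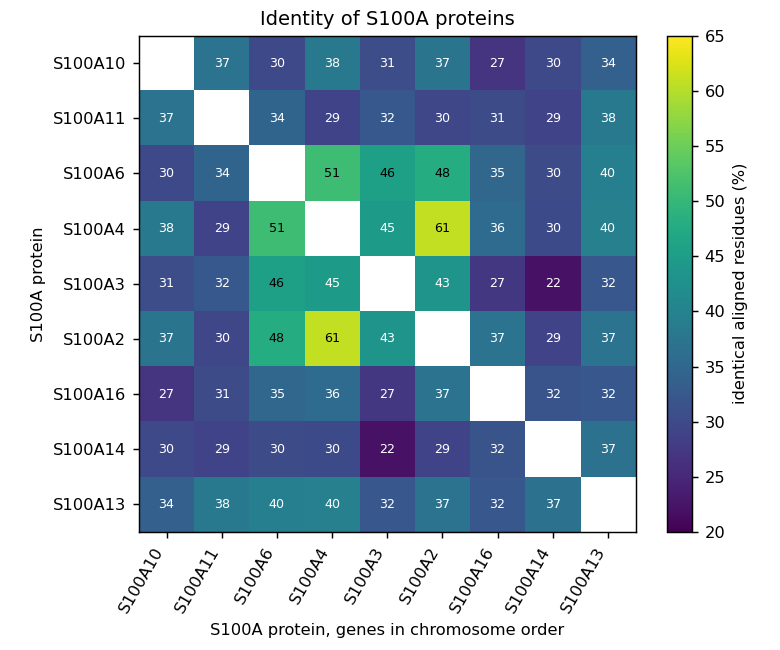
Identity of the 9 S100A proteins in percent of aligned residues, genes in chromosome order on both axes. The block of S100A6, S100A4, S100A3 and S100A2 stands out with 43.3% to 60.8%, and all other pairs are below it.

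S100A transcripts were more abundant in the shSETD2 libraries. Added up, the 9 genes reached 77.1, 81.1 and 84.1 FPKM in the control libraries, or 0.0346%, 0.0369% and 0.0377% of the FPKM of all listed genes. In the shSETD2 libraries they reached 1070, 1041 and 1099 FPKM, or 0.487%, 0.476% and 0.489%. S100A6, S100A10 and S100A11 made up 89.1% to 92.5% of these sums in every library. Of the 9 genes, 7 had every shSETD2 library above every control library, 0 had the reverse, and S100A4 and S100A14 overlapped. Among all genes tested, 27.9% lay above in this way, 53.0% below and 80.9% in either direction. A mean of 0.5 FPKM over all libraries was reached by 7 of the 9 genes, of which S100A6, S100A16, S100A3 and S100A2 reached it through the shSETD2 libraries alone, and not by S100A4 and S100A14. Because the family was chosen with this contrast known, nothing is read from these counts.

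**Figure D2:**
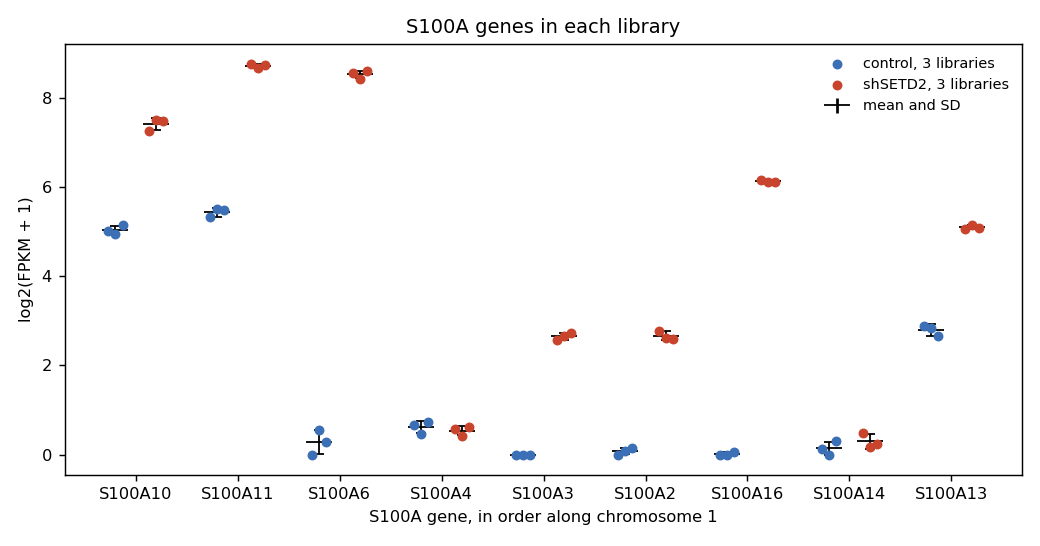
log2(FPKM + 1) of the 9 S100A genes in the 3 control and 3 shSETD2 libraries, in order along chromosome 1, with the mean and SD of each group. The shSETD2 libraries sit above the control libraries for 7 genes, and the groups overlap for S100A4 and S100A14.

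The pair of highest control transcripts came from the genes at the lower end of the cluster. S100A11 (ENSG00000163191.5_2), which encodes a partner of annexin A1 in membrane repair and in the cornified layer of skin, had 38.8, 44.2 and 43.5 FPKM in the control libraries and 429, 405 and 427 FPKM in the shSETD2 libraries. It was the most abundant of the 9 transcripts in both groups, with means of 42.1 ± 2.89 and 420.3 ± 13.5 FPKM (SD, n = 3 each), and the lowest shSETD2 library was far above the highest control library. The ratio of the means was 9.97, and the log2 fold change was 3.29 (standard error 0.063). S100A10 (ENSG00000197747.8_2), also called p11, joins annexin A2 in a heterotetramer under the plasma membrane and had 31.2, 29.9 and 34.2 FPKM in control and 152, 179 and 177 FPKM in shSETD2. No library of one group came near the other group, with means of 31.8 ± 2.17 and 169 ± 15.3 FPKM, a ratio of 5.33 and a log2 fold change of 2.37 (standard error 0.094). In bulk RNA, more cells with a transcript and more transcript in each cell cannot be told apart for these or any other of the genes.

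S100A6 (ENSG00000197956.9_2) went from near 0 to the second rank of the family. It encodes calcyclin, which binds CACYBP in a ubiquitin ligase complex. The control libraries had 0, 0.457 and 0.213 FPKM, and the shSETD2 libraries had 375, 343 and 384 FPKM. Every shSETD2 library was thus far above every control library, none of which reached 1 FPKM, with means of 0.223 ± 0.229 and 367 ± 21.4 FPKM. The log2 fold change of 8.25 (standard error 0.16) on the FPKM + 1 scale was exceeded by 3 of the 14068 genes tested. In control S100A6 was the fifth of the 9 genes by its mean and its range overlapped those of S100A4 and S100A14, and in shSETD2 it was above S100A10 with no overlap and below S100A11 alone. Its CpG-rich upstream sequence is printed above.

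S100A16 (ENSG00000188643.10_2), a widely expressed member of less well known function, was at 0, 0 and 0.0446 FPKM in control and at 70.5, 68.6 and 67.6 FPKM in shSETD2. It was listed at 0 in all but 1 control library and varied least of the 9 genes among the shSETD2 libraries relative to its mean, with a mean of 68.9 ± 1.47 FPKM. The log2 fold change was 6.11 (standard error 0.027) on the FPKM + 1 scale, with 30 tested genes above it. With pseudocounts of 0.1 and 0.01 it was 9.25 and 11.93, so the standard error holds on the FPKM + 1 scale only. S100A13 (ENSG00000189171.14_3), which takes part in the release of fibroblast growth factor and interleukin-1 alpha outside the classical secretory route, was at 6.41, 6.14 and 5.27 FPKM in control and at 32.4, 34.5 and 32.8 FPKM in shSETD2. The groups were well apart, with means of 5.94 ± 0.593 and 33.2 ± 1.10 FPKM and a ratio of 5.60. S100A13 was the third and last gene of the family above 1 FPKM in the control libraries.

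S100A2 (ENSG00000196754.10_2), a nuclear member of basal epithelia, was at 0, 0.0590 and 0.0992 FPKM in control and at 5.85, 5.11 and 5.05 FPKM in shSETD2. S100A3 (ENSG00000188015.9_3), best known from the hair cuticle, was listed at 0 in every control library and at 4.91, 5.34 and 5.59 FPKM in shSETD2. Both were therefore at about the same level in the shSETD2 libraries, with means of 5.34 ± 0.444 and 5.28 ± 0.342 FPKM and overlapping ranges. The log2 fold change of S100A2 was 2.59 (standard error 0.070) on the FPKM + 1 scale, and none is given for S100A3 because its control libraries are all at 0.

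S100A4 (ENSG00000196154.11_3), a myosin-binding member long studied for its link with metastasis, was at 0.581, 0.383 and 0.668 FPKM in control and at 0.481, 0.338 and 0.524 FPKM in shSETD2. The ranges overlapped, and its log2 fold change of -0.09 (standard error 0.099) was smaller than its standard error. The direction was not stable, as it became 0.03 with median ratio scaling of the libraries and 0.36 with quantile normalization. S100A4 thus stayed under 1 FPKM in every library while S100A3, whose gene lies within its own, and S100A6, whose lower end is 9.01 kb from its own, were at 0 to 0.457 FPKM in the control and at 4.91 to 384 FPKM in the shSETD2 libraries. S100A14 (ENSG00000189334.8_2), a member of differentiated epithelia, was at 0.0852, 0 and 0.230 FPKM in control and at 0.401, 0.116 and 0.187 FPKM in shSETD2. These ranges overlapped too, although its neighbours on both sides, S100A16 and S100A13, did not overlap between the groups.

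The order of the genes by level also changed. In control, S100A11, S100A10 and S100A13 were each separated from the next gene, and the 6 genes from S100A4 downward overlapped their neighbours in the order. In shSETD2, S100A11, S100A6, S100A10, S100A16 and S100A13 were each separated from the next, S100A2 and S100A3 overlapped, and S100A4 and S100A14 overlapped at the bottom. Each control library had 3 of the 9 genes at 1 FPKM or more, and each shSETD2 library had 7. The median of their log2 fold changes was 2.59, against -0.29 for all genes tested.

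**Figure D3:**
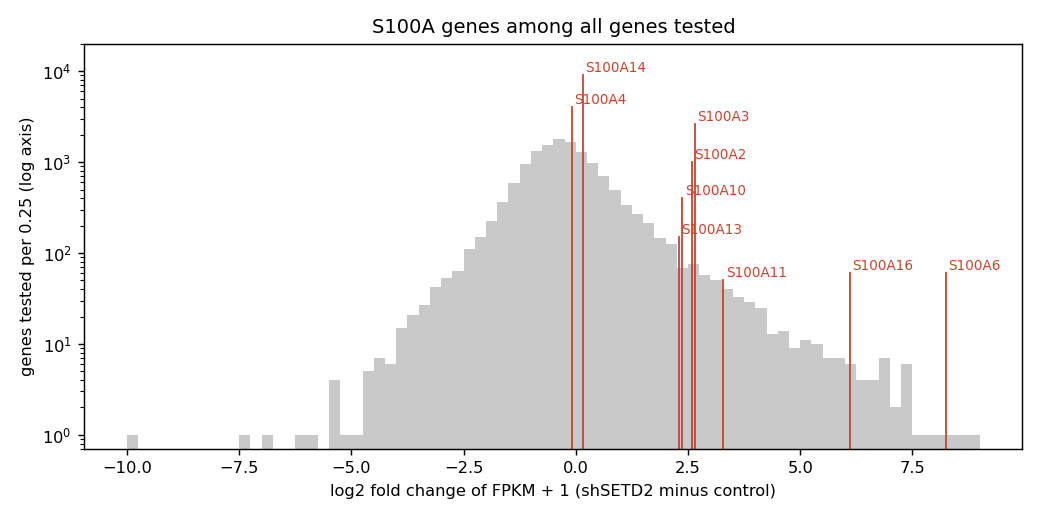
Log2 fold change of FPKM + 1 (shSETD2 minus control) for the 14068 genes tested, as counts per bin of 0.25 on a log axis, with a line for each S100A gene whose height only keeps the labels apart. S100A6 (8.25) and S100A16 (6.11) lie in the far right tail and S100A4 (-0.09) and S100A14 (0.16) near the middle, and the place of S100A3 holds only on the FPKM + 1 scale because it is at 0 in control.

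The genes with the most similar pattern over the 6 libraries, by Euclidean distance of log2(FPKM + 1), differed between the members. Nearest to S100A6 were the chemokine gene CXCL1 (distance 0.450), the metallothionein gene MT1E (0.478) and the linker histone gene HIST1H1B (0.733). CXCL1 went from a mean of 0.0890 FPKM in control to 365 FPKM in shSETD2. Nearest to S100A10 were CLIC1 (0.447), HIST1H2AE (0.868) and ITGB1 (0.988), and nearest to S100A11 were the nonmuscle myosin gene MYH9 (0.306), HIST1H2AJ (1.06) and HIST1H3F (1.40). TCAF2 (0.167), FLT3LG (0.252) and ZSCAN5A (0.253) were nearest to S100A4. With such large differences between the groups, these distances mostly compare 2 group levels.

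The genes around the family had lower values in the shSETD2 libraries more often than higher ones, as did all genes tested. Within 1 Mb of the start of an S100A gene 51 other genes are listed, of which 50 were tested, 7 rose, 31 fell and 12 did not pass the limma threshold, with a median log2 fold change of -0.43. Over all genes tested 26.8% were higher and 51.8% lower, with a median of -0.29. After median ratio scaling the counts were 14 higher and 20 lower. Next to S100A10, THEM4 fell from 5.11 ± 0.329 to 2.32 ± 0.115 FPKM (log2 fold change -0.88, adjusted p = 2.21e-05 in limma). The next gene on that side, TDRKH, was at 3.76 ± 0.136 and 3.79 ± 0.184 FPKM (adjusted p = 0.892 in limma), but it was called higher with median ratio scaling (0.29, adjusted p = 3.40e-03 in limma) and with quantile normalization (0.26, adjusted p = 5.26e-03 in limma). Next to S100A13, CHTOP fell from 19.2 ± 0.444 to 13.8 ± 2.16 FPKM (-0.46, adjusted p = 7.30e-03 in limma) and SNAPIN from 9.75 ± 0.995 to 7.20 ± 0.473 FPKM (-0.39, adjusted p = 5.17e-03 in limma), but neither passed with median ratio scaling (adjusted p = 0.306 and 0.490). No other protein-coding gene in the table used here lies between S100A6 and S100A13. The largest differences among the neighbours were those of LYSMD1, which fell from 9.93 ± 0.754 to 0.887 ± 0.140 FPKM (-2.53, adjusted p = 6.12e-07 in limma), of the tropomyosin gene TPM3 and of SELENBP1, which was at 2.83 ± 0.356 FPKM in control and listed at 0 in every shSETD2 library. CDC42SE1 rose from 10.9 ± 0.875 to 34.1 ± 2.02 FPKM (1.56, adjusted p = 2.73e-06 in limma), and the long noncoding RNA AL358472.2 fell from 2.05 ± 0.236 to 0.170 ± 0.0204 FPKM (-1.38, adjusted p = 5.05e-06 in limma). The noncoding transcript AL162258.1, which overlaps S100A13 on the same strand, rose from 1.68 ± 0.398 to 4.34 ± 1.87 FPKM (0.94, adjusted p = 0.0153 in limma), and how shared reads were divided between it and S100A13 is not known. Its call was lost without control library 1 or 2, with an adjusted p of up to 0.0512 in limma.

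**Figure D4:**
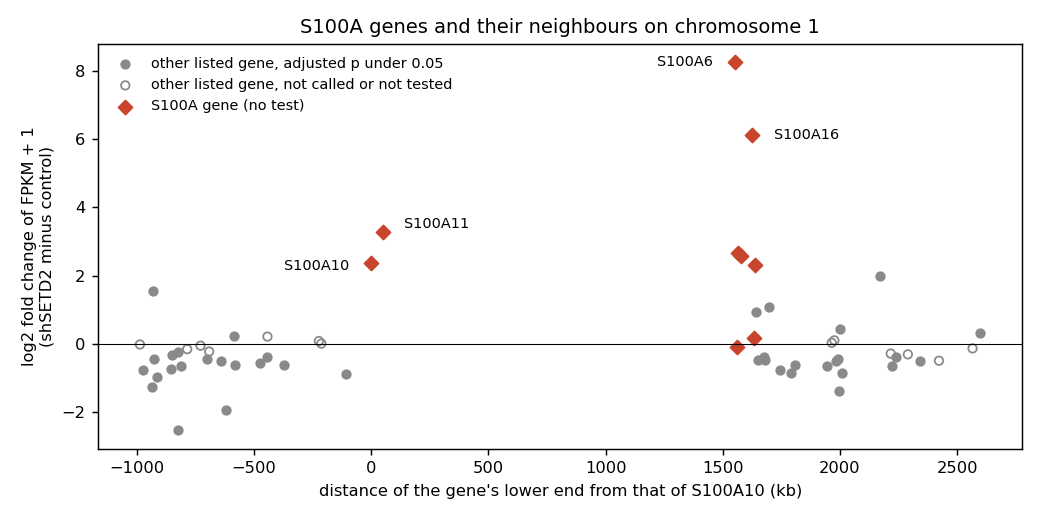
Log2 fold change of FPKM + 1 (shSETD2 minus control) of the S100A genes (red diamonds, no test) and of 51 other listed genes around them (grey, filled where the adjusted p was under 0.05), against the distance of each gene's lower end from that of S100A10 in kb. The neighbours lie between -2.53 and 1.98, and the diamonds of S100A6 and S100A16 stand at 8.25 and 6.11, with S100A3 again placed only on the FPKM + 1 scale.

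Of 73 genes listed by hand as partners or receptors of S100 proteins, 63 are in the table and 60 were tested. Of these 32 rose, 20 fell and 8 did not pass the limma threshold, with a median log2 fold change over the listed genes of 0.26 against -0.29 for all genes tested, of which 26.8% were higher and 51.8% lower. After median ratio scaling 38 partners were higher and 15 lower. The annexins, calcium-dependent membrane-binding proteins, all rose (6 of 6 tested, median 1.13). ANXA1, the partner of S100A11, rose from 0.614 ± 0.118 to 40.7 ± 1.50 FPKM (log2 fold change 4.69, adjusted p = 3.16e-08 in limma). ANXA2, the partner of S100A10, rose from 6.70 ± 0.391 to 69.8 ± 1.89 FPKM (3.20, adjusted p = 4.30e-08 in limma). ANXA11, a partner of S100A6, rose from 7.93 ± 0.524 to 13.7 ± 0.596 FPKM (0.72, adjusted p = 5.36e-05 in limma). The FPKM ratios of member to annexin were compared for the first 2 of these pairs. The ratio of S100A10 to ANXA2 was 4.44, 4.77 and 5.02 in the control libraries and 2.13, 2.65 and 2.51 in the shSETD2 libraries. The ratio of S100A11 to ANXA1 was 72.4, 79.4 and 57.9 in control and 10.9, 9.58 and 10.5 in shSETD2. Both ratios were lower in every shSETD2 library than in every control library.

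Of the cytoskeletal and membrane partners, 13 of 18 tested rose and 4 fell, with a median of 0.89, beside 26.8% higher and 51.8% lower over all genes tested. The giant scaffold AHNAK, which binds the S100A10 and annexin A2 complex, rose from 11.2 ± 0.546 to 216 ± 4.59 FPKM (log2 fold change 4.16, adjusted p = 1.12e-08 in limma). The heavy chain of nonmuscle myosin IIA, MYH9, the best known target of S100A4, rose from 46.3 ± 0.870 to 402 ± 12.5 FPKM (3.09, adjusted p = 1.43e-08 in limma), while S100A4 itself overlapped between the groups. MYH14, the heavy chain of myosin IIC, fell from 4.81 ± 0.405 to 0.00352 ± 0.00609 FPKM (-2.53, adjusted p = 2.76e-07 in limma). Tropomyosin genes rose, TPM1 from 1.40 ± 0.0377 to 33.1 ± 8.23 FPKM (3.80, adjusted p = 3.30e-06 in limma), TPM2 from 3.72 ± 0.278 to 36.5 ± 0.949 FPKM (2.99, adjusted p = 7.63e-08 in limma) and TPM3 from 7.33 ± 0.652 to 32.3 ± 7.25 FPKM (1.98, adjusted p = 3.97e-05 in limma).

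Of the partners of S100A10 in plasminogen activation and at membrane channels, 3 of 6 tested were higher and 3 lower. Over all genes tested 26.8% were higher and 51.8% lower. PLAU, the urokinase that turns plasminogen into plasmin, rose from 1.23 ± 0.0377 to 383 ± 13.2 FPKM (log2 fold change 7.43, adjusted p = 1.95e-09 in limma). The plasminogen activator gene PLAT, 1 of the 3 lower, fell from 6.34 ± 0.759 to 3.08 ± 0.261 FPKM (-0.84, adjusted p = 2.02e-04 in limma). DLC1, a GTPase-activating protein that S100A10 binds, rose from 3.46 ± 0.253 to 17.7 ± 0.378 FPKM (2.07, adjusted p = 3.13e-07 in limma). Of the cell surface receptors of released S100 proteins, 4 of 7 tested rose and 2 fell, beside the same 26.8% and 51.8% over all genes tested. Among the 4, TLR4 (0.00587 FPKM in control and 1.58 FPKM in shSETD2) reached a mean of 0.5 FPKM through the shSETD2 libraries alone. EGFR rose from 4.08 ± 0.178 to 77.6 ± 0.846 FPKM (3.95, adjusted p = 1.13e-08 in limma). AGER, the receptor RAGE, was at 1.25 ± 0.464 FPKM in control and 0.670 ± 0.0638 FPKM in shSETD2 (-0.41, adjusted p = 0.0431 in limma). The call of AGER was lost without any one of control libraries 1 and 3 and shSETD2 libraries 1, 2 and 3, with adjusted p between 0.0831 and 0.116 in limma, as it was with median ratio scaling (-0.24, adjusted p = 0.169 in limma), and its sign turned with quantile normalization.

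The partners in ubiquitin ligase, chaperone and related complexes had 3 of 17 tested higher, 10 lower and a median of -0.46, beside 26.8% higher and 51.8% lower and a median of -0.29 over all genes tested. CACYBP, the calcyclin-binding protein that docks on S100A6, was at 21.2 ± 2.58 and 22.5 ± 3.26 FPKM (log2 fold change 0.08, adjusted p = 0.576 in limma), with ranges that overlapped while those of S100A6 did not. With median ratio scaling CACYBP was called higher (0.42, adjusted p = 0.0192 in limma). Of the partners in protein export and calcium handling, 3 of 6 tested rose and 1 fell. This one was SYT1, the synaptotagmin of the S100A13 release complex, which was at 2.71 ± 0.356 FPKM in control and listed at 0 in every shSETD2 library; it lies just outside the genes named by rule and was chosen after its values were seen. S100PBP, the nuclear S100P-binding protein, fell from 6.18 ± 1.22 to 2.59 ± 0.216 FPKM (-0.99, adjusted p = 5.22e-04 in limma), and S100P, on chromosome 4, was at 0.135 FPKM or less in every library.

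**Figure D5:**
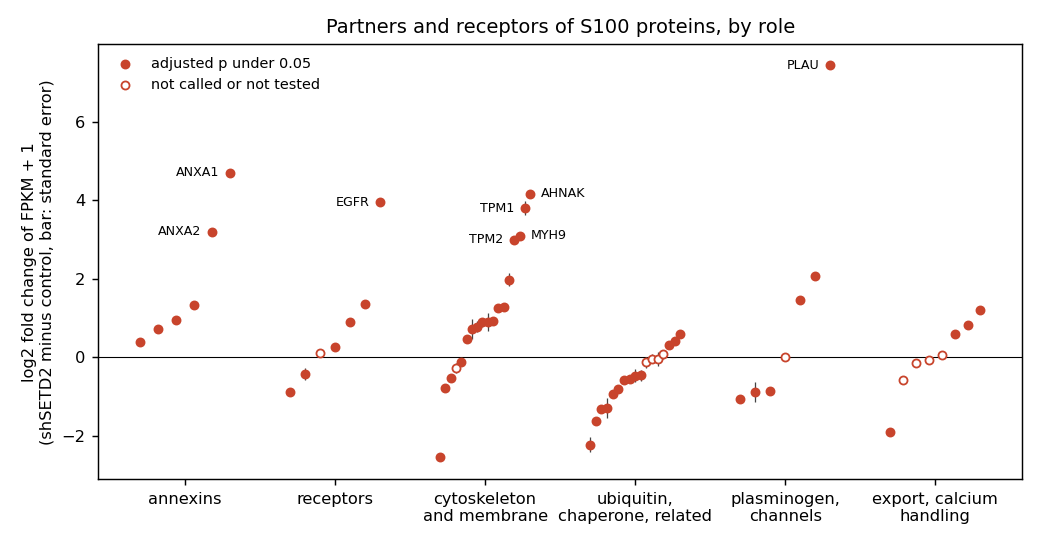
Log2 fold change of FPKM + 1 (shSETD2 minus control) of the 63 listed partner and receptor genes by role, with bars for the standard error and filled points where the adjusted p was under 0.05. All 6 annexins lie above 0 and 10 of the 17 tested ubiquitin, chaperone and related partners are filled below it, while PLAU is the highest point at 7.43.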

How the data were processed

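RNA of H1650 cells was sequenced by the authors from 3 control and 3 shSETD2 libraries. Reads were aligned by the authors with Hisat2, which the submitters' processing notes name too, to hg19, the same build as GRCh37. Ballgown then gave the deposited FPKM of 15897 genes per library. Neither tool versions nor the rule by which genes were listed are given in the sources used here. A second deposited table adds the authors' own comparison (group means, fold changes, p-values and q-values), which was not used. Low values did not fall on multiples of a common step (at most 1.19% of low genes shared a ratio bin of 0.01 on the log2 scale), so the fragments behind a value are unknown and precision rests on the spread over 3 libraries.

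For the main comparison, log2(FPKM + 1) of all 6 libraries was fitted in limma 3.58.1 (R 4.3.3; lmFit, then eBayes using the intensity trend) for genes whose mean was 0.5 FPKM or more, with Benjamini-Hochberg adjustment over all genes tested and a threshold of 0.05. The fit was tested on simulated data with known changes. A p-value measures only the spread between these libraries. No p is given for an S100A gene. The S100A genes and the lists of partners and markers were chosen with earlier results of these data known.

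The genes named were every S100A gene, S100P, S100PBP and SETD2; of the partners ANXA1, ANXA2, ANXA11, AGER, CACYBP, MYH9 and AHNAK and the 12 with the largest called log2 fold change without overlap; of the neighbours the 2 protein-coding genes next to each end of the S100A genes and the 5 with the largest called change; and the 3 protein-coding genes nearest in pattern to each of 4 members. Some genes that these rules cover are not reported here. Exons, overlaps and protein translations came from the GENCODE annotation of GRCh37, whose gene versions differ from those in the table. Promoters came from RefSeq (table built on GRCh38.p14), with the 250 bases before each start located in GRCh37 by exact match. Proteins were aligned globally with BLOSUM62 (gap open 10, extension 0.5) in biopython 1.88, and EF-hand loops were searched with a strict published pattern. Alternatives were pseudocounts of 0.1 and 0.01, no filter or a mean FPKM of at least 5, median ratio, quantile and upper quartile scaling, no trend, the replicate number as a block, and each library left out in turn. For S100PBP these were added after the data were seen. Python 3.11.15 was used for the tables (pandas 2.3.3, numpy 2.4.6) and the plots (matplotlib 3.10.9). Of the columns of per-library values, 0 were left unused for want of a label.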

Additional observations from a re-analysis of the deposited data

How the results depend on the processing

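The size of the S100A differences depended on the pseudocount where control values are near 0. The median over the 9 log2 fold changes was 3.32 with a pseudocount of 0.1 and also 3.32 with 0.01, against 2.59 with 1, and it was 2.74 with median ratio scaling, 2.70 with quantile normalization and 2.53 to 2.62 with a library left out. S100A6 went to 10.47 and 11.82 and S100A16 to 9.25 and 11.93 with pseudocounts of 0.1 and 0.01. The number of S100A genes without overlap between the groups was 7 to 9 over the settings tried.

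Median ratio scaling moved the median of all genes from -0.29 to 0.00 and the calls over all genes from 3774 higher and 7283 lower to 5338 and 5272, and the neighbours to 14 higher and 20 lower. Quantile normalization gave 4706 and 5875. With a mean FPKM of at least 5, where fewer genes are tested, 2401 genes were higher and 3246 lower, and 11 partners and 18 neighbours were lower. With a library left out, the calls were 3528 to 3669 higher and 6822 to 7269 lower over all genes, 30 to 32 and 17 to 20 among partners, and 6 to 8 and 29 to 31 among neighbours. The log2 fold change of SETD2 was -0.83 to -0.45 with a library left out. The sign of genes close to 0 turned in some settings, namely AGER (0.046) and CACYBP (-0.066) with quantile normalization, CACYBP without shSETD2 library 2 (-0.028, with a range of -0.028 to 0.17 over the libraries left out), and TDRKH without control library 1 or without shSETD2 library 1 or 3 (-0.014 to 0.041 over the libraries left out). The cause of these changes was not tested.

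Libraries that share a replicate number did not deviate together (r of their deviations from the group means over genes -0.02, 0.02 and -0.01), so the numbers were not taken as pairs. With the replicate number as a block, SETD2 passed the threshold (-0.58, adjusted p = 0.0156 from limma), and the calls were 3733 higher and 7243 lower over all genes, 31 and 22 among partners, and 7 and 32 among neighbours. The number of fragments behind each value is unknown, so values near 0 have no counting limit.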
